A study of Mus musculus with 6 samples.

Results

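The actin-linked genes Fscn1, Csrp2, Marcksl1 and Lcp1 were followed in type 1 conventional dendritic cells (cDC1). They were chosen by gene symbol, with earlier results of the same arrays known, and all 4 of 4 were found among the 12780 genes that could be compared, each through 1 probe set that carries no other symbol. The cells were migratory cDC1 from the skin draining lymph node of C57BL/6 mice labelled WT, sorted as B220-, CD326-, MHC II high, CD11c intermediate, XCR1+, Sirpa- and CD40+. One group of 3 samples was unstimulated and the other group of 3 was anti-CD40 stimulated, and the series was designed to compare the expression of the cells in the presence and absence of the antibody. The genotype, strain, tissue and sort were common to both groups. The sources used here do not state the age of the mice, whether animals were pooled, or the route, timing and dose of the antibody. The labels call the samples biological replicates without naming separate animals, so every error and p-value below reflects variation among these samples only, and some of that may be technical.

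Dendritic cells that mature and migrate lose much of their capacity for engulfing material and grow long, actin-rich processes with which they touch T cells. Fascin, encoded by Fscn1, packs actin filaments into tight straight bundles and is a classical marker of mature dendritic cells. L-plastin, encoded by Lcp1, bundles actin in leukocytes under the control of calcium. Csrp2 encodes a small protein with a pair of zinc-binding LIM domains, best known from smooth muscle, that binds actin filaments. Marcksl1 encodes a MARCKS-like protein of the inner face of the plasma membrane, a protein kinase C substrate that links membrane lipids to actin. CD40 is the receptor for CD40 ligand on activated CD4 T cells, and the antibody engages it directly.

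RefSeq places all 4 genes, each protein coding, in the mouse build GRCm38.p6. Fscn1 spans chr5:142960355-142973189, Csrp2 chr10:110920176-110939514, Marcksl1 chr4:129513581-129515981 and Lcp1 chr14:75131105-75230842. The RefSeq promoter table held 3 of the 4, Fscn1, Marcksl1 and Lcp1, the last with 2 start sites. The 250 bases before each start were searched on both strands for the kappaB motif, the CArG box and the AP-1 site TGANTCA. None of these occurred in the windows of the 3 genes, while 3.90%, 1.47% and 6.75% of the 32851 promoters in the table held them. The window of Fscn1 is printed because 2 other elements, searched after the sequences were seen, occurred in it and in no window of Marcksl1 or Lcp1. These are the cAMP response element TGACGTCA, 45 to 38 bases before the start, and a TATA box (TATAAA), 31 to 26 bases before it. They do not overlap each other, both are in capitals, and 1.55% and 12.4% of all promoters held them.
Fscn1 (chr5:142960105-142960354, + strand, 5′ to 3′): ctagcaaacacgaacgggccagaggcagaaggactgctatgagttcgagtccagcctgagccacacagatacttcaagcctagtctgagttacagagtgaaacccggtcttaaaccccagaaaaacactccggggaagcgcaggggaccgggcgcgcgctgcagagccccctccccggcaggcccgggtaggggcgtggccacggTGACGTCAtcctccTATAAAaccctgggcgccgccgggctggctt
A match describes the letters only, and no binding was measured here.

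Each sample was hybridised to 1 Affymetrix array, and the values are the deposited intensities, on a linear scale from 6.97 to 13701. Median intensity per array over all 17551 probe sets lay between 51.9 and 56.3. The arrays differed in how widely their log2 intensities were spread. Over the 12780 genes compared, the interquartile range of unstimulated replicates 1, 2 and 3 was 2.19, 1.74 and 1.92. Stimulated replicates 1, 2 and 3 had ranges of 2.31, 1.75 and 2.03. Of 10 cDC1 markers 9 were measured, given here as log2 means in unstimulated cells. The transcription factor genes Irf8, Batf3 and Zbtb46 were at 11.002, 9.35 and 7.01. Flt3 was at 10.95, Cadm1 at 7.43 and Clec9a at 6.67. Xcr1, on which the cells were sorted, was at 4.44, the integrin gene Itgae at 4.76 and Wdfy4 at 4.91. With background not analysed here, the low values of Xcr1, Itgae and Wdfy4 neither bear out nor contradict the label.

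Csrp2 was the member that differed most between the groups. Its intensity in unstimulated replicates 1, 2 and 3 was 504, 382 and 439.9, against 1594, 1157 and 1389.9 in stimulated replicates 1, 2 and 3. The lowest stimulated array lay above the highest unstimulated array, and within each group the arrays stayed close together. On the log2 scale the means were 8.78 ± 0.20 and 10.42 ± 0.23 (SD, n = 3 each), a difference of 1.64 ± 0.20 (SE), or 3.11-fold with a 95% interval of 2.26 to 4.29. Only 14 of the 12780 genes had a larger positive difference. Set side by side by replicate number, stimulated over unstimulated intensity was 3.16, 3.03 and 3.16 for the numbers 1, 2 and 3. The 3 ratios are thus nearly equal as deposited, although the labels do not say that arrays of 1 number share an animal or a day. In such sorted populations, a change of RNA per cell and a change in which cells were collected cannot be told apart. Because the members were chosen with this contrast known, these and the following differences are descriptions without a test.

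Fscn1 was bright in both groups and varied more between replicates than between groups. Its intensity in unstimulated replicates 1, 2 and 3 was 6527, 1193 and 1842, against 8318, 2073 and 4718 in stimulated replicates 1, 2 and 3. The groups overlapped, since unstimulated replicate 1 was brighter than stimulated replicates 2 and 3. Within the unstimulated group the brightest array was 5.47-fold above the dimmest, and within the stimulated group 4.01-fold. The log2 means were 11.25 ± 1.27 and 12.08 ± 1.01 (SD, n = 3 each), and their difference of 0.83 ± 0.71 (SE) corresponded to 1.78-fold with a 95% interval of 0.560 to 5.68. By replicate number the ratio of stimulated to unstimulated was 1.27, 1.74 and 2.56 as deposited, above 1 for each number but of unequal size. The SD between replicates, pooled over the groups, was 1.15 on the log2 scale, larger than that of 99.6% of all genes and against a median of 0.278.

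Lcp1, the other bundling gene, followed the same order of replicate numbers within each group. Its intensity in unstimulated replicates 1, 2 and 3 was 1929, 642 and 1121, against 2697, 1094 and 1289 in stimulated replicates 1, 2 and 3. Number 1 was the brightest and number 2 the dimmest in each group, and the groups overlapped. The log2 means were 10.12 ± 0.79 and 10.61 ± 0.69 (SD, n = 3 each), with a difference of 0.48 ± 0.47 (SE), or 1.40-fold with a 95% interval of 0.646 to 3.03. By replicate number the ratio was 1.40, 1.70 and 1.15. The pooled SD of 0.745 was larger than that of 95.5% of all genes.

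Marcksl1 was bright on every array and differed least between the groups. Its intensity in unstimulated replicates 1, 2 and 3 was 2267, 3137 and 2857, against 3321, 3165 and 4107 in stimulated replicates 1, 2 and 3. All 3 stimulated arrays lay above all 3 unstimulated ones, but stimulated replicate 2 exceeded unstimulated replicate 2 by a ratio of only 1.01. The ratios for the numbers 1 and 3 were 1.47 and 1.44. The log2 means were 11.41 ± 0.24 and 11.78 ± 0.20 (SD, n = 3 each), with a difference of 0.36 ± 0.20 (SE), or 1.29-fold with a 95% interval of 0.931 to 1.77. The pooled SD was 0.222, below the median of all genes. With the arrays centred on their medians the groups of Marcksl1 overlapped, and with the arrays also scaled to 1 spread the difference was 0.02.

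Thus 2 of the 4 members, Csrp2 and Marcksl1, had stimulated values above every unstimulated value as deposited, a pattern that 3.68% of all genes showed, and Fscn1 and Lcp1 did not. The members' choice used this contrast, so nothing is read from that count.

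**Figure D1:**
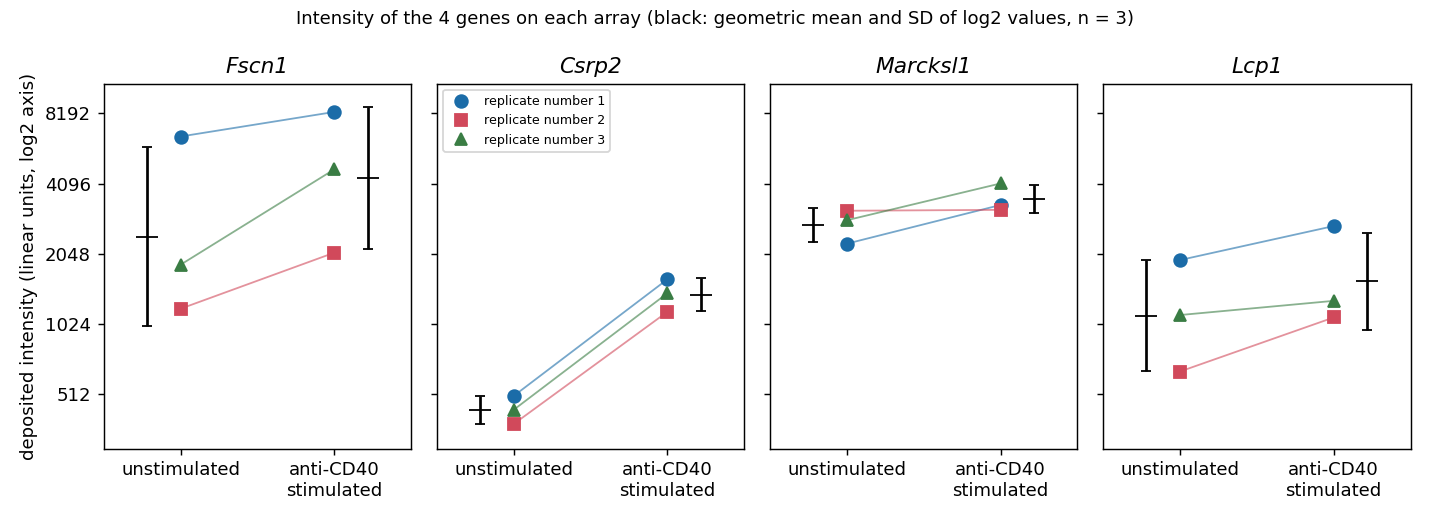
Deposited intensity of Fscn1, Csrp2, Marcksl1 and Lcp1 (log2 axis) on the 3 unstimulated and 3 anti-CD40 stimulated arrays, with lines joining arrays of the same replicate number and black bars giving the geometric mean and the SD of log2 values (n = 3). Csrp2 lies between 382 and 504 without and between 1157 and 1594 with stimulation, whereas Fscn1 and Lcp1 are spread by replicate number in both groups.

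The total variation of each gene over the 6 arrays was divided into a part between the 2 groups, a part between the 3 replicate numbers and a rest. With 3 numbers but only 2 groups, the part between numbers tends to take a larger share even without any difference. The shares are therefore not on an equal footing. For Fscn1, 16.5% lay between the groups and 79.4% between the numbers. Lcp1 had much the same division, with 13.7% and 83.2%. Csrp2 was the reverse, with 95.5% between the groups and 4.42% between the numbers. Marcksl1 lay in between, with 50.1% between the groups, 26.6% between the numbers and the largest rest of the 4, 23.4%. Over all genes the median shares were 8.998% between groups and 60.2% between numbers, so a large share between numbers was common to the whole table.

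**Figure D2:**
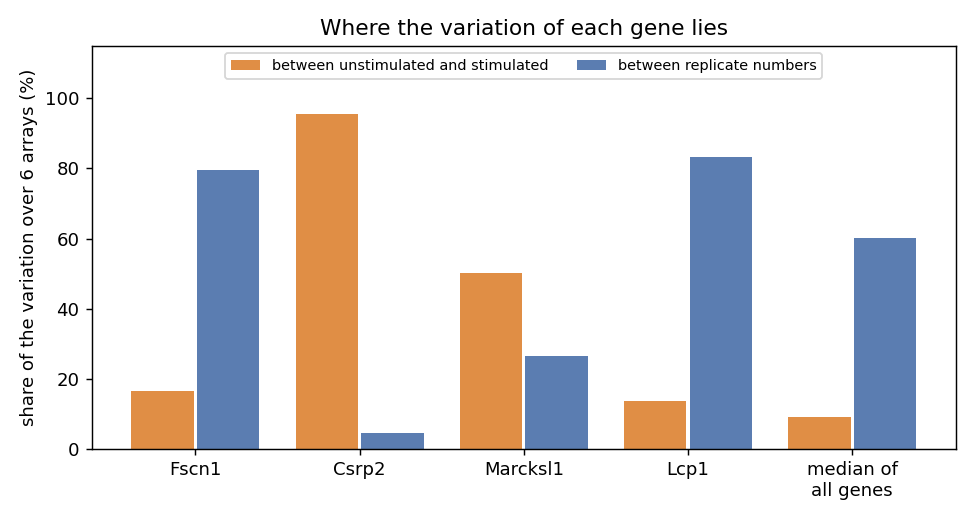
Share of the variation over 6 arrays (%) that lay between the 2 groups and between the 3 replicate numbers, for each member and as the median of all genes. Csrp2 has 95.5% between the groups, while Fscn1 and Lcp1 have 79.4% and 83.2% between the numbers.

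The levels of Fscn1 and Lcp1 moved with the spread of the arrays, which was widest for number 1 and narrowest for number 2 in each group. Averaged over both groups, Fscn1 was 2.23 higher (log2) in number 1 than in number 2, and Lcp1 1.44 higher. Csrp2 was 0.43 higher and Marcksl1 0.20 lower in number 1. Methods that make the spread of the arrays equal did not treat these differences alike. After a second quantile normalisation, numbers 1 and 2 differed by 2.26 in Fscn1 and 1.41 in Lcp1, and the pooled SD was 1.17 and 0.759, close to the deposited values. After each array was centred on its median and scaled to 1 spread, the difference between numbers 1 and 2 was 0.77 for Fscn1, 0.28 for Lcp1, -0.56 for Csrp2 and -1.63 for Marcksl1. The pooled SD on that scale was 0.462 for Fscn1 and 0.309 for Lcp1, smaller than as deposited, but 0.308 for Csrp2 and 0.825 for Marcksl1, larger than as deposited. As deposited, the highest intensity per array lay between 12734 and 13701. Which scale is closer to the RNA in the cells was not tested. Between the groups, Csrp2 differed by 1.42 on the values scaled to 1 spread and its groups did not overlap there. Fscn1 differed by 0.52 and Lcp1 by 0.24 with overlapping groups. On those values Csrp2 in replicates 1, 2 and 3 was at 2.90, 3.25 and 3.17 without stimulation. With stimulation it was at 4.19, 4.96 and 4.43, a less equal step by number than as deposited. In number 1 Fscn1 was at 6.28 without and 6.26 with stimulation, and in number 3 Lcp1 was at 4.57 and 4.32. In the other numbers both genes were higher with stimulation.

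**Figure D3:**
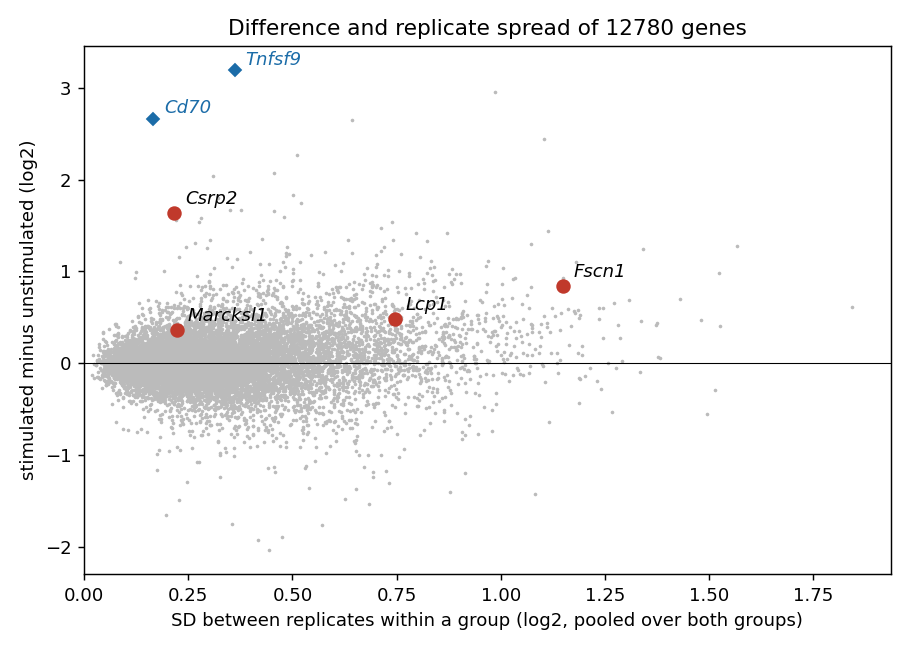
Difference between the groups (stimulated minus unstimulated, log2) against the SD between replicates within a group (log2) for 12780 genes, with the 4 members in red and Tnfsf9 and Cd70 in blue. Csrp2 combines a difference of 1.64 with a small SD, while Fscn1, with an SD of 1.15, lies among the most variable genes.

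For each member the 5 genes with the most similar profile were found, as the smallest mean absolute difference between log2 values on the 6 arrays, each gene first centred on its own mean. Whether the groups of these genes overlap, and by how much they differ, largely follows from that choice and is description only. The nearest to Csrp2 were the cytokine subunit gene Ebi3 (0.087), the survival gene Bcl2l1 (0.105), the CD28 ligand gene Cd86 (0.133), the growth factor gene Csf1 (0.186) and the transcription factor gene Gli1 (0.196). All 5 had stimulated arrays above all unstimulated arrays, with differences of 1.58, 1.80, 1.54, 1.67 and 1.59. The nearest to Fscn1 were Fcho1, an endocytosis gene (0.095), Nfkb2, which encodes the NF-kB precursor p100 (0.128), Dennd4b (0.132), Pxn, which encodes the adhesion adaptor paxillin (0.137), and the semaphorin gene Sema4c (0.138). All 5 had overlapping groups, with differences from 0.59 for Sema4c to 0.93 for Dennd4b. The nearest to Lcp1 were Slc35e2 (0.081), the Golgi tethering gene Cog7 (0.090), the Golgi SNARE gene Stx5a (0.109), Sipa1l1 (0.110) and Msn, which encodes moesin, a linker of actin to the membrane (0.111). The nearest to Marcksl1 were Usp20 (0.069), Tmem121 (0.079), the ribosomal protein gene Rpl34 (0.079), Chchd5 (0.080) and the purine metabolism gene Pnp (0.080). Of these 5, Usp20 and Pnp had stimulated arrays above all unstimulated arrays, with differences of 0.28 and 0.37, and the other 3 had overlapping groups. Between members the smallest such distance was that of Fscn1 and Lcp1 (0.454), and 360 genes were closer to Fscn1 than Lcp1 was. The 4 members thus did not form 1 profile.

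**Figure D4:**
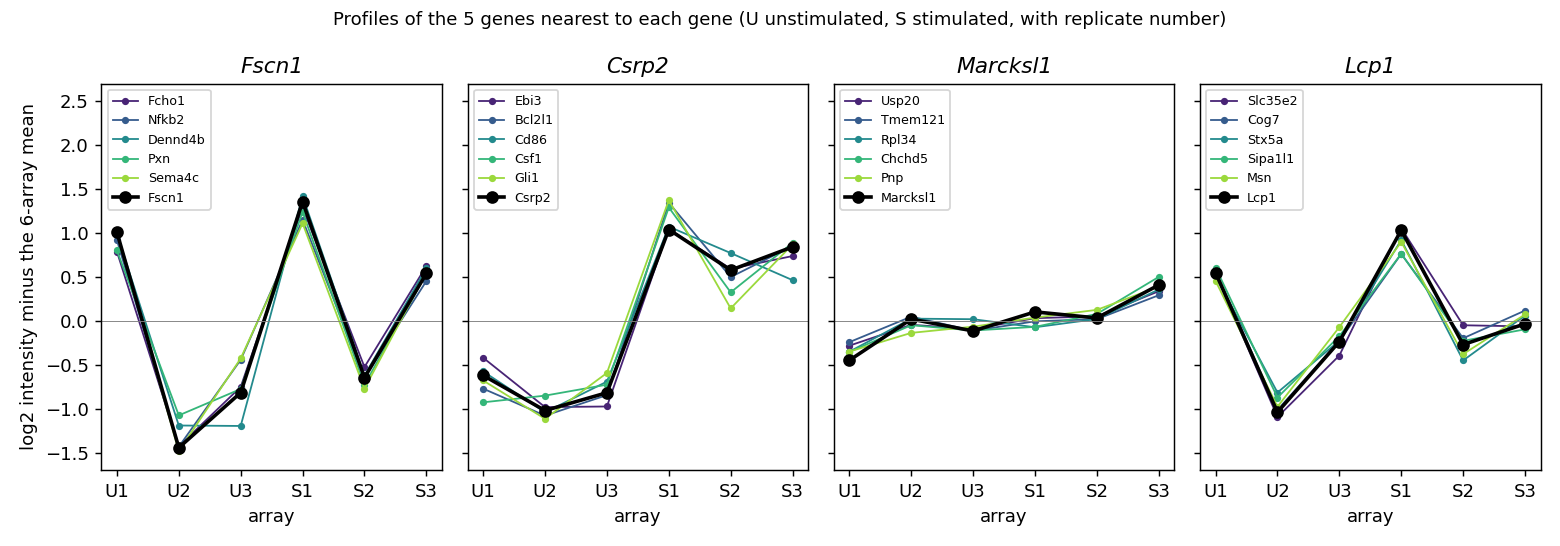
Log2 intensity minus the 6-array mean for each member (black) and its 5 nearest genes, over unstimulated (U) and stimulated (S) arrays with their replicate number. The profile of Csrp2 steps up between the groups, those of Fscn1 and Lcp1 fall at number 2 in both groups, and that of Marcksl1 moves over a narrower range than these.

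The relatives of the 4 genes were tested in the fit over all genes, in which 2 genes, Tnfsf9 and Cd70, passed upward (0.0156% of all genes) and 0 passed downward (0% of all genes), at a limma adjusted p under 0.05. At an unadjusted p under 0.05, 265 genes were higher and 181 lower. None of the 6 measured relatives passed. Csrp1, which encodes another LIM protein of the same family, had unstimulated intensities of 572, 239.6 and 371 in replicates 1, 2 and 3, against 688, 262 and 648 in stimulated replicates 1, 2 and 3. Its groups overlapped and it differed by 0.40 ± 0.45 (SE), and number 2 was again the dimmest in each group. Marcks, the founding member of its family, was at 2845, 2955 and 3060 and at 3373, 3317 and 2972 in the same order, and differed by 0.12 ± 0.15 (SE). On the arrays scaled to 1 spread the difference of Marcks was -0.19. The other relatives were dim throughout: Fscn2 differed by -0.20, the plastin genes Pls1 and Pls3 by -0.08 and -0.13, and the muscle LIM gene Csrp3 by -0.11. The limma adjusted p of each of these 6 was 0.99998. Fscn3 was not analysed here.

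Other genes of the actin cytoskeleton were taken from 6 lists with 129 genes, of which 110 were measured. In the fit over all genes 0 of 110 passed upward and 0 downward. At an unadjusted p under 0.05, 6 were higher and 2 lower, 5.45% and 1.82% of the 110, where 2.07% and 1.42% of all genes were. Non-overlapping groups were found for 9 with higher and 3 with lower stimulated values, 8.18% and 2.73%, beside 3.68% and 3.46% of all genes. As deposited, 72 differences were positive (65.5%) and 38 negative, with a median of 0.10. Over all genes 51.0% were positive, with a median of 0.005. The direction was the same after a second quantile normalisation (67 positive and 43 negative, median 0.08), with 60.9% positive beside 49.8% of all genes. It was also the same with the arrays centred on their medians (64 and 46, median 0.06), with 58.2% positive beside 44.7% of all genes. With the arrays also scaled to 1 spread it turned, with 50 positive (45.5%) and 60 negative and a median of -0.03. On that scale 44.8% of all genes were positive and their median was -0.03.

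The Arp2/3 complex, which starts branched filaments, and its activators had 20 measured genes, of which 0 passed in either direction, with a median of 0.18. Hcls1, which encodes the leukocyte cortactin-like protein HS1, was at 51.8, 50.9 and 37.4 without and at 96.4, 88.7 and 92.2 with stimulation. It differed by 1.0001 ± 0.19 (SE) without overlap, with a limma adjusted p of 0.369. The complex subunit gene Arpc2 differed by 0.22. Actins and monomer-binding proteins (14 measured, 0 passed in either direction, median 0.03) included Actb, the main cytoplasmic actin gene, at 13.15 ± 0.28 and 13.51 ± 0.22 (log2, SD, n = 3 each). Its difference was 0.36 as deposited and -0.04 with the arrays scaled to 1 spread. Dstn, which encodes the severing protein destrin and was named after its value was seen, differed by -0.73 with overlapping groups.

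Tropomyosins and myosins (17 measured, 0 passed in either direction, median 0.07) held Myo9a, which encodes an unconventional myosin, at 355, 862 and 873 without and 295, 274.5 and 322 with stimulation. The difference was -1.12 ± 0.35 (SE), but unstimulated replicate 1 lay close to the stimulated arrays. On the arrays scaled to 1 spread the difference of Myo9a was -1.36 and its groups overlapped. The regulatory light chain gene Myl12a differed by 0.62 as deposited and by 0.37, with overlapping groups, on the arrays scaled to 1 spread. Myo1g, a myosin gene of blood cells, differed by 0.03. Among crosslinkers and membrane linkers (28 measured, 0 passed in either direction, median 0.18), ezrin (Ezr) of the ERM family differed by 0.77 ± 0.26 (SE). Radixin (Rdx) of that family differed by -0.37 ± 0.17 (SE). Its groups did not overlap as deposited, but did after a second quantile normalisation and on the arrays scaled to 1 spread. Moesin (Msn), named because it was also near Lcp1, differed by 0.40 ± 0.44 (SE) with overlapping groups. Lsp1, a leukocyte actin-binding protein gene, differed by 0.35. Capping, severing and turnover genes (22 measured, 0 passed in either direction, median -0.06) held Wdr1, a cofilin partner, at -0.07. They also held Limk1, whose kinase inactivates cofilin, at 0.59 ± 0.25 (SE). Limk1 was dim, with intensities of 51.1, 31.2 and 56.3 without and 67.3, 62.4 and 73.7 with stimulation. Formins and Ena/VASP proteins (9 measured, 0 passed in either direction, median 0.04) held Fmnl2 at -0.51. Except for Hcls1, each gene of these lists named here had a limma adjusted p of 0.99998.

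**Figure D5:**
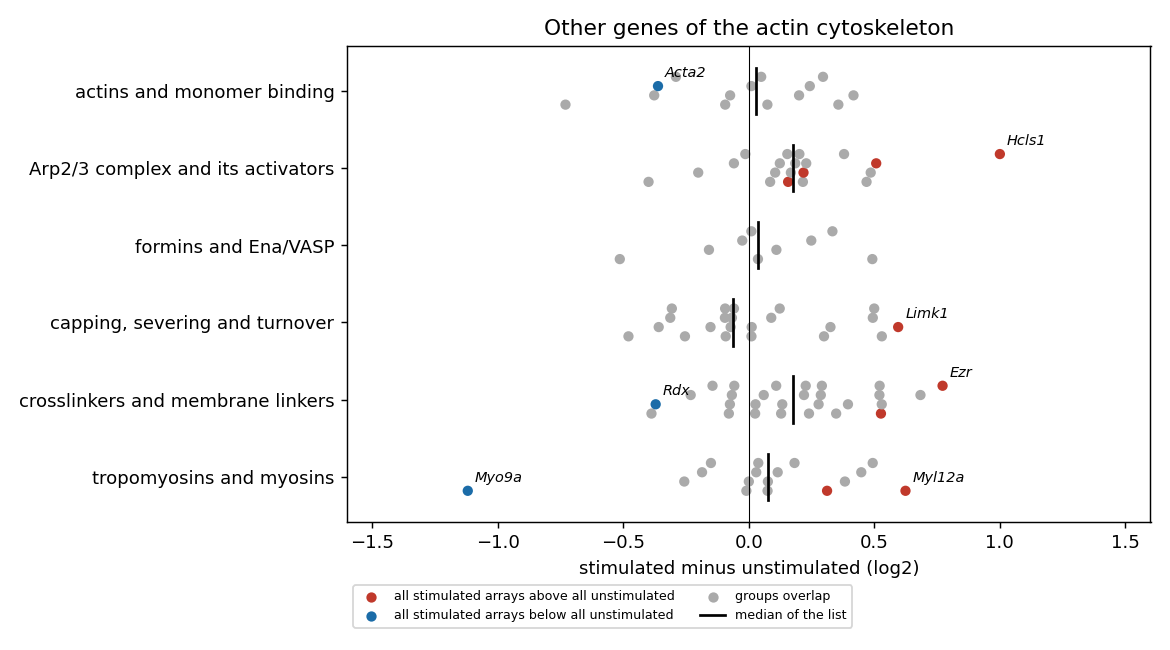
Difference between the groups (stimulated minus unstimulated, log2) of each measured gene of 6 actin lists, coloured by whether the groups overlap, with black lines at the list medians. Most genes lie near 0, Hcls1 is at 1.0001 and Myo9a is at -1.12; none passed over all genes.

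Since Csrp2 is also a smooth muscle gene and actin genes are abundant in stromal cells, markers of other cells were examined beside it. Of 14 smooth muscle and fibroblast markers 10 were measured, 4 with positive and 6 with negative differences, and their mean log2 level per array was 4.95 to 5.18 without and 4.78 to 5.19 with stimulation. Acta2, smooth muscle actin, was at 18.1, 16.8 and 27.1 without and at 16.6, 13.9 and 16.7 with stimulation, so its stimulated values lay just below the unstimulated ones as deposited, and Myh11 was at 4.88 and 4.72 (log2). The mean log2 level per array of the endothelial markers (2 of 8 measured) was 4.21 to 4.72 without and 4.10 to 4.32 with stimulation. That of the keratinocyte and Langerhans cell markers (5 of 6) was 4.62 to 4.87 and 4.73 to 4.95. Among these 5, Epcam, which encodes the CD326 that the sort excluded, was at 4.74 without and 5.31 with stimulation, a difference of 0.57 without overlap (limma unadjusted p = 0.0176, adjusted p = 0.99998), and the other 4 had negative differences. For macrophage and monocyte markers (2 of 8) the mean level per array was 4.93 to 5.31 without and 4.87 to 5.54 with stimulation. For B and T cell markers (5 of 10) it was 4.54 to 5.37 and 4.82 to 5.67. The 5 B and T cell markers all had positive differences, with a median of 0.43, and their part in the members' levels was not tested.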

How the data were processed

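The values were made by the authors with RMA and Affymetrix Expression Console, per the submitters' processing notes, with versions not given in the sources used here. In general, RMA corrects background, normalises arrays by quantiles and summarises probe sets. The deposited values were nonetheless unequal in spread between arrays, with interquartile ranges from 1.74 to 2.31 (log2) over the genes compared. The reason was not tested. The quantile normalisation called second here was applied to the deposited log2 values. The authors deposited linear intensities for 17551 probe sets on 6 arrays. Log2 was taken before any test. Of these probe sets 13963 had 1 gene symbol in the platform annotation, 970 several and 2618 none. For the 677 genes with more than 1, the probe set with the highest mean was used. The number of arrays limits the precision.

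Groups were compared by lmFit and eBayes of limma 3.58.1 under R 4.3.3, two-sided and without covariates, with Benjamini-Hochberg adjustment over 12780 genes and a threshold of 0.05, and the procedure was tested on simulated data. Other variance models, filters, scalings, covariates and left-out arrays were tried as alternatives. Intervals are 95% limma intervals. One further list is not reported here. Members and lists were chosen with earlier results of these data known. The genes named from each actin list are those called, the brightest, and the largest differences in each direction without overlap, except where the text says otherwise. Python 3.11.15 with matplotlib 3.10.9 drew the figures.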

Additional observations from a re-analysis of the deposited data

How the results depend on the processing

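All 4 members had a positive difference in all 18 refits, which reused the same arrays and are no independent support for a direction. The variance model, the filter of dim genes, a block for the replicate number and the mean over probe sets could not change a member's difference. Leaving out arrays, singly or both of 1 number, gave 0.32 to 1.55 for Fscn1 (lowest without unstimulated replicate 2, highest without unstimulated replicate 1), 0.09 to 0.88 for Lcp1 (the same arrays), 0.23 to 0.54 for Marcksl1 and 1.53 to 1.76 for Csrp2. With the arrays centred and scaled to 1 spread, Csrp2 differed by 1.42 and Marcksl1 by 0.025, and 1 gene of the whole table passed upward in place of 2. With the interquartile range as a covariate Fscn1 differed by 0.48, and 11 genes passed upward and 4 downward. Array weights gave 28 upward and 18 downward, with 1 gene of the actin lists, Hcls1, at a limma adjusted p of 0.0241. A second quantile normalisation gave 1 gene downward. With the replicate number as a block, 30 genes passed upward and 8 downward, with 0 of the actin lists. The numbers pair the samples by no label. Deviations from the group means correlated at 0.727, 0.594 and 0.061 for the numbers 1, 2 and 3, and unstimulated replicate 3 correlated best with stimulated replicate 2 (0.194). At an adjusted p under 0.01, and whenever arrays were left out, 0 genes passed upward (0 to 0). No gene of the actin lists passed downward in any of the 20 alternatives. With 3 arrays a group, and with background not analysed here, differences of dim genes are ratios of intensities that can understate a change in RNA.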
